A study of Mus musculus with 12 samples.

Results

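The genes described here are the Myc family and the Max network: the paralogs Myc, Mycn and Mycl, their dimer partner Max, and the other proteins that pair with Max, which are Mxd1, Mxi1, Mxd3, Mxd4, Mnt and Mga. The 10 genes were chosen by name and matched by Ensembl gene ID among the 30399 genes of the table, and all 10 were found and tested. Bulk RNA was sequenced from 7 mouse tumors and 5 normal mouse lungs, in a series on making mouse lung cancer models by CRISPR/Cas9 mutagenesis without viruses. Tissue was kept in RNALater, poly-A RNA was selected, and paired reads were made on an Illumina NovaSeq. The labels say only "tumor" or "normal lung": they give no strain, age, genotype, mutated gene or delivery route for any sample. The tumors are called 1 to 7 here, in the order of listing. Tumors 3 and 4 share a number in their titles, as do tumors 5, 6 and 7, so the 7 tumors carry 4 distinct numbers, whose meaning the labels do not give. If they stand for animals, p-values measure partly the spread between pieces of 1 animal. Titles place tumors 1 and 7 at the trachea and tumors 3, 4, 5 and 6 in the lung.

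MYC, MYCN and MYCL are transcription factors that must pair with MAX to bind DNA, mostly at the E-box sequence CACGTG, where they raise transcription of genes for ribosome building, nucleotide and polyamine synthesis and cell growth. MXD proteins, MNT and MGA also pair with MAX and occupy the same sites, but they recruit corepressors: SIN3 and histone deacetylases in the case of MXD proteins and MNT, and the Polycomb complex PRC1.6 in the case of MGA. In human small cell lung cancer, a neuroendocrine tumor, MYC, MYCN or MYCL is amplified in a subset of cases, mostly in different tumors.

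The tumors carried the marker genes of neuroendocrine and dividing cells and had less RNA of lung epithelial, endothelial and leukocyte markers than normal lung. Summed normalized counts of 10 neuroendocrine markers, such as Chga and Calca, ran from 284 to 382 in normal lungs and from 36046 to 132574 in tumors, with 10 of 10 genes higher. The sum of 10 proliferation markers ran from 1690.0 to 3461 in normal lungs and from 24156 to 53930 in tumors, again with 10 of 10 higher. Of 12 lung epithelial markers 11 were lower, of 10 endothelial markers 10, and of 11 leukocyte markers 11. Of 4 smooth muscle markers 3 were lower, of 7 fibroblast markers 2 and of 5 cardiac muscle markers 0. The sums of these last 3 lists overlapped between the groups. In bulk tissue, fewer cells of a type and less RNA per cell cannot be told apart, and the part of these cell types in the results below was not tested. A normal lung library held 11126432 to 17032234 reads and a tumor library 13093843 to 24217633, so that 3 reads, taken as the lowest count that can be read as detection, were worth at most 4.85 normalized counts in a normal lung and 3.57 in a tumor. Values below are these normalized counts, and log2 fold changes are of log2(value + 1), which understates the change of low genes.

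Of the 10 genes, 3 were higher in tumors (Mycn, Mycl and Mxd3), 2 were lower (Max and Mxd4) and 5 did not pass the test (limma, Benjamini-Hochberg adjusted p under 0.05 over 23674 genes). The background is large: 31.4% of all tested genes were higher and 30.1% lower by the same rule, 61.5% in all, so 5 of 10 is no more than the share among all genes. In the same 5 genes the groups did not overlap, against 38.4% of tested genes; 3 had every tumor above and 2 every tumor below the normal lungs, against 20.1% and 18.4%. The median log2 fold change of the 10 genes was 0.36, against 0.04 over all tested genes. In the plot of each gene by sample, the tumors lie farthest from each other for Mycn.

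**Figure D1:**
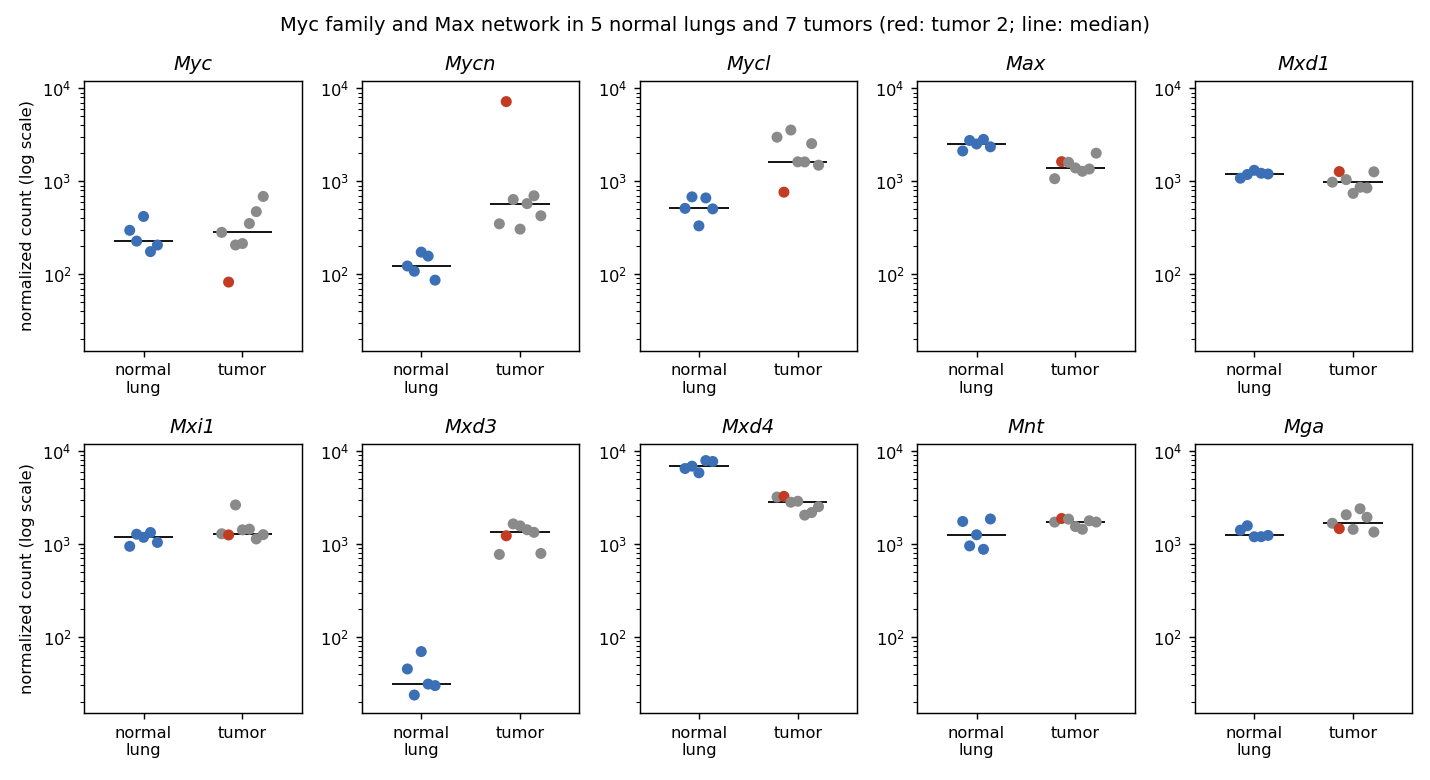
Normalized count of each of the 10 genes in 5 normal lungs (blue) and 7 tumors (grey; tumor 2 in red), on a log scale; each point is a sample and each line a group median. Tumors lie above every normal lung for Mycn, Mycl and Mxd3 and below every normal lung for Max and Mxd4, and tumor 2 stands apart for Mycn.

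To show the sequence before the start site of genes that moved, RefSeq promoters (build GRCm38.p6) were matched by symbol for 9 of the 10 genes, all but Myc, in windows from 250 bases before to 50 bases after each start. Both strands were searched for the E-box CACGTG and for the E2F-type letters TTTGGCGC and TTTCCCGC; no matches overlapped each other. The upstream parts of Mycn and Mxd4 and 30 bases around the start of Max are printed from the gene's own strand, with matches in capitals.
Mycn, chr12:12941837-12942086, minus strand: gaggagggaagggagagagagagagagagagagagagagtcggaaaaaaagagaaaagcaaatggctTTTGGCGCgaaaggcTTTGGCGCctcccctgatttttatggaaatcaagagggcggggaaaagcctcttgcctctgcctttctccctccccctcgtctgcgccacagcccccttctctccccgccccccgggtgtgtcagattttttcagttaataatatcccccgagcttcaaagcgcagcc
Mxd4, chr5:34187711-34187960, minus strand: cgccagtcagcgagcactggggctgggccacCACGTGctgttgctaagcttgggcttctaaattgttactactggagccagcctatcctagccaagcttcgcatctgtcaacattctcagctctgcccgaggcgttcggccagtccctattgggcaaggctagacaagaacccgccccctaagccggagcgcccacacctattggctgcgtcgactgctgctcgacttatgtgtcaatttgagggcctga
Max, chr12:76962234-76962263, minus strand: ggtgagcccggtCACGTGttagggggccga
Mycn held TTTGGCGC 183 and 168 bases before its start, letters found in the windows of 158 of 27025 genes (0.585%). The E-box CACGTG was found in 3 of the 9 genes, against 8.09% of all genes. It began 219 bases before the start in Mxd4, 123 in Mnt and 3 in Max. For Max alone the last 30 bases of the window were not found in a transcript, so the distance to its start is less certain. The windows of Mycl, Mxd1, Mxd3, Mxi1 and Mga held none of the 3 motifs, and TTTCCCGC was in none of the 9 genes (1.24% of all). A match is a string of letters, not a measured binding site.

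Mycl, the paralog named for its discovery in human small cell lung cancer, rose in the tumors. Its values in normal lungs 1 to 5 were 511, 679.5, 331, 662 and 505, and in tumors 1 to 7 they were 2984, 764, 3562, 1619, 1615, 2543 and 1490.3. Every tumor was above every normal lung, with tumor 2 the lowest and close to the highest normal lung. The means were 537.5 ± 141.4 (SD, n = 5) and 2082.5 ± 977.8 (SD, n = 7), a log2 fold change of 1.84 (SE 0.34, limma adjusted p = 3.41e-04), or 3.59-fold.

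Mycn, which is normally expressed in embryonic and neural progenitors, also rose, and tumor 2 held by far the most. The normal lungs had 122.5, 107.5, 173, 157 and 86.2, and tumors 1 to 7 had 348, 7208, 636.5, 305, 575, 698 and 425. Each of the 7 tumors was above each normal lung, and tumor 2 was about an order of magnitude above the next tumor. On the log2 scale it rose by 2.48 (SE 0.63, limma adjusted p = 0.00382). Without tumor 2 it was 1.92 (limma adjusted p = 5.30e-05), so the call did not rest on that tumor although the size of the mean did: 129.1 ± 35.4 (SD, n = 5) in normal lung against 1456.7 ± 2540.5 (SD, n = 7) in tumors.

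Myc, the ubiquitous paralog, did not pass the test. The normal lungs had 297, 227, 418, 175 and 206, and tumors 1 to 7 had 282, 82.2, 206, 214, 351, 471 and 687. The groups overlapped: tumor 2 was below all normal lungs, tumors 6 and 7 were above all of them, and the other 4 lay within their range. Its log2 fold change, 0.12 with an SE of 0.43 (limma adjusted p = 0.819), turned sign in several alternatives, among them without tumor 7 (-0.10). Tumor 7, the tumor with the most Myc, also had the highest sums of leukocyte markers (15124, against 394 to 4228 in the other tumors), fibroblast markers (31188), smooth muscle markers (6922.5) and cardiac muscle markers (37116, against at most 2491 in the other tumors). It had the lowest sum of neuroendocrine markers, 36046; the part of these cells in its Myc level was not tested.

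Per kilobase of exon, which allows paralogs to be compared, the 3 paralogs together had 269.7 ± 24.7 normalized counts (SD, n = 5) in normal lung and 1078.4 ± 618.5 (SD, n = 7) in tumors. Each tumor lay above the highest normal lung: the ranges were 227 to 288 and 572 to 2407. In normal lungs the sum was split between Mycl (49.7% ± 13.0), Myc (35.9% ± 11.5) and Mycn (14.4% ± 3.15; SD, n = 5), and Mycl led in 4 of 5, Myc in normal lung 3. In tumors Mycl led in 6 of 7. Its share in tumors 1 to 7 was 77.9%, 7.86%, 76.6%, 70.1%, 56.8%, 62.1% and 49.2%. Tumor 2 was the exception and was nearly all Mycn, with 90.9% Mycn, 7.86% Mycl and 1.26% Myc. In the other 6 tumors Mycn held between 11.1% and 24.8% of the sum. Myc held 33.7% in tumor 7 and between 6.59% and 18.4% in tumors 1, 3, 4, 5 and 6. Which paralog led in each sample was the same with the longest transcript as the length and with no length scaling.

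**Figure D2:**
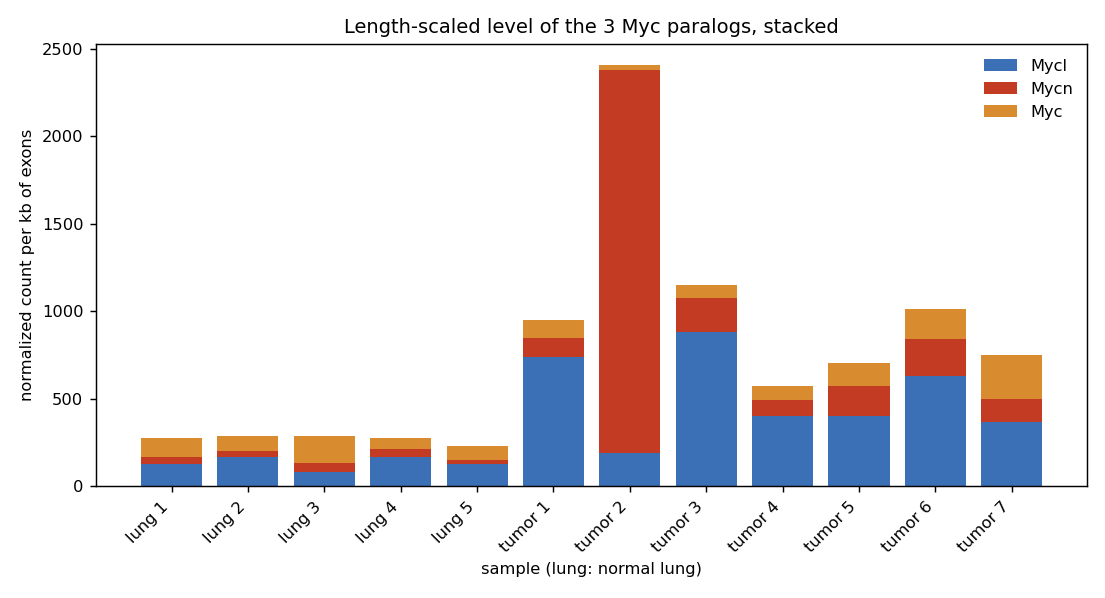
Level of Mycl (blue), Mycn (red) and Myc (orange) per kilobase of exon, stacked, in each of 5 normal lungs and 7 tumors; the vertical axis is normalized count per kb of exons. Mycl makes up the largest part in tumors 1, 3, 4, 5, 6 and 7, and Mycn makes up 90.9% in tumor 2.

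Because tumor 2 stood apart for Mycn, its neighbours on chromosome 12 were examined, a choice made after the values were seen. Ddx1, an RNA helicase gene, and Nbas, a gene for a vesicle transport protein, lie next to MYCN in human and mouse and are often co-amplified with it in human neuroblastoma. Ddx1 had 14910.0 normalized counts in tumor 2, against 465.6 to 929 in the other tumors and 328 to 408 in normal lungs. Nbas had 14336 in tumor 2, against 455 to 984 in the other tumors and 608 to 701 in normal lungs. Both were thus about as far above the other tumors as Mycn itself, at 21.2 and 18.9 times the median of the other 6 tumors against 14.4 times for Mycn. Across the groups neither passed the test: the log2 fold change of Ddx1 was 1.59 (limma adjusted p = 0.0541) and that of Nbas 0.74 (limma adjusted p = 0.343). The call for Ddx1 depended on the processing and kept its outcome in 15 of 23 alternatives. It passed without tumor 2 (0.96, limma adjusted p = 5.44e-04), without tumor 1 (adjusted p = 0.0496), without tumor 7 (adjusted p = 0.0340) and without both trachea tumors (adjusted p = 0.0264). It also passed with equal totals (adjusted p = 0.0324), with edgeR (3.19, adjusted p = 0.0166) and with tumors of 1 title number averaged (adjusted p = 0.0450) or treated as correlated (adjusted p = 0.0401). The log2 fold change of Nbas passed with edgeR alone among its alternatives (2.27, adjusted p = 0.0497).

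The high genes of tumor 2 formed a stretch. Among Mycn and the 20 protein-coding genes on each side of it with a mean value of at least 10, 18 of 41 had at least 4 times the median of the other 6 tumors in tumor 2, against 2.12% of 15126 such genes in the genome. The ratio is of values + 1, and Apob, at 5.96 in tumor 2 and 0 in most other tumors, passed only through the added 1. With the median of the other tumors raised to the value of 3 reads, 17 genes passed, against 2.16% of the 15126. These 17 lay within a run of 21 genes, from Ldah, 18 genes before Mycn in the order of the chromosome, to Nbas, 2 genes after it, and their median ratio was 18.7. By either count no other tumor had more than 1 gene past this fold in the window.

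Several genes of the stretch were abundant in tumor 2. Smc6, a subunit of the SMC5/6 complex for genome maintenance, had 44238 in tumor 2 and 1573 to 2871 in the other tumors. Laptm4a, a gene for a lysosomal membrane protein, had 47416, against 2507 to 3599. Gen1, a resolvase of recombination intermediates, had 10961, against 327 to 587, and Wdr35, a component of ciliary transport, had 14404, against 419.5 to 964.5. The ratios of these 4 genes to the median of the other tumors were 17.6 to 24.5, but over the run they varied: Pum2, with 19213 in tumor 2, was at 4.33 times that median, Ldah at 9.36 times and Kcns3 at 56.8 times. Kcns3 was low in the other tumors (3.97 to 46.75), and its 839.8 in tumor 2 stood against 451 to 667 in normal lungs. Rad51ap2 had 797 in tumor 2 and 0 to 0.674, below 3 reads, in the other tumors, and Vsnl1, a neuronal calcium sensor, had 1582, against 9.91 to 34.6 (191 to 640 in normal lungs).

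Not every gene in the run was raised to the same degree. Fam49a, the neighbour of Mycn on the side of Smc6, had 299 in tumor 2, 2.03 times the median of the other tumors and within the range of normal lung (181 to 329). Rhob had 3.21 times that median, with 9491 in tumor 2 against 6381 to 8814 in normal lungs. Sdc1 had 2.17 times that median, but its 3949 in tumor 2 was below the normal lungs (6449 to 9058). Past Nbas the pattern ended within 1 gene: Fam84a was at 1.64 times and Trib2, a pseudokinase gene, at 0.436 times the median of the other tumors. Of the 18 window genes past Nbas, 16 were below that median in tumor 2 (88.9%), against 52.4% of all 15126 genes. Elsewhere on chromosome 12 only another 3 genes passed the 4-fold mark in tumor 2. Chromosome 12 had the largest share of such genes of all chromosomes, 21 of 529 (3.97%). Of these 21, 18 were the window genes already counted, so the share is no separate result. DNA was not measured, so gene copies cannot be told apart here from transcription.

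**Figure D3:**
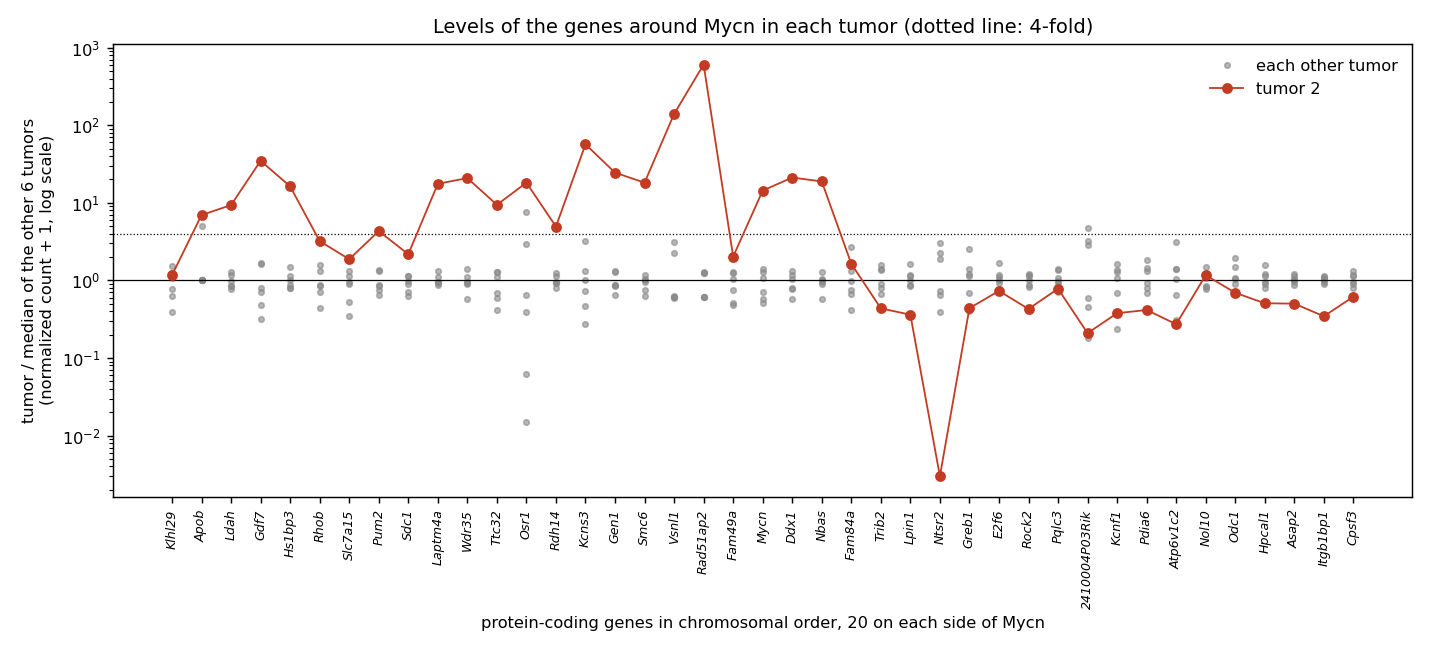
Level in each tumor over the median of the other 6 tumors, computed on normalized count + 1 and drawn on a log scale. Shown are Mycn and 20 protein-coding genes on each side in chromosomal order (red line: tumor 2, grey points: every other tumor, dotted line: 4-fold). Each tumor is set over the median of the 6 tumors other than itself, so the medians for the grey points include tumor 2. In tumor 2, 18 of 41 genes lie above the dotted line; Apob does so only through the added 1, and the other 17 lie between Ldah and Nbas.

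The windows around the other paralogs showed no such run. Around Myc on chromosome 15, the number of 41 genes past the 4-fold mark was 0 in tumors 1 to 5, 1 in tumor 6 and 4 in tumor 7. Around Mycl on chromosome 4 it was 2 in tumors 1 and 7, 1 in tumor 6 and 0 in the other 4. Tumor 3, with the most Mycl, had none. Pvt1, the noncoding RNA gene beside Myc, rose (log2 fold change 0.98, limma adjusted p = 0.00658). Its range was 193 to 291 among normal lungs and 273 to 863 among tumors. Nsmce2 rose by 0.89 on that scale, while Trib1 and Washc5 did not pass the test. Fam84b, the window gene just before Myc, had 2066 to 2922 in normal lungs. Every tumor was below that range, from 193 in tumor 2 to 1249.8 in tumor 5. Of 6 genes around Mycl, Trit1 (1.24) and Bmp8b (4.70) rose and Mfsd2a (-2.40) and Cap1 (-1.68) fell, 4 of 6 against 61.5% of all tested genes.

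Max, the partner that all these proteins need, fell. The normal lungs had 2120.2, 2750.2, 2519.5, 2824 and 2349.8, and tumors 1 to 7 had 1067, 1626, 1600.2, 1391, 1281, 1356 and 2008. No tumor reached the lowest normal lung, and tumor 7 was the closest to it. The means were 2512.8 ± 289.0 (SD, n = 5) and 1475.7 ± 302.3 (SD, n = 7), a log2 fold change of -0.79 (SE 0.16, limma adjusted p = 0.000678). Mlx, whose product is a related hub that pairs with MXD1, MXD4 and MNT and with the glucose sensors MLXIP and MLXIPL, had a log2 fold change of -0.36 (limma adjusted p = 0.0600) and did not pass.

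The 4 Mxd genes, whose proteins oppose MYC at shared sites, went in different directions. Mxd3, the member associated with dividing cells, rose the most of all 10 genes. The 5 normal lungs had 45.1, 23.7, 69.5, 31.0 and 29.9, against 772, 1226, 1645, 1565, 1423, 1335 and 791 for tumors 1 to 7. The groups were far apart, and tumors 1 and 7 were the lowest of the tumors. The means were 39.8 ± 18.3 (SD, n = 5) and 1250.9 ± 349.4 (SD, n = 7), a log2 fold change of 4.99 (SE 0.29, limma adjusted p = 1.04e-08), or 31.7-fold. The summed proliferation markers were lowest in the same tumors, at 36108 in tumor 1 and 24156 in tumor 7 against 38465 to 53930 in the others; their part in the Mxd3 level was not tested. The span of Mxd3 overlaps Prelid1 on the opposite strand, which did not pass the test: 890.4 ± 247.5 (SD, n = 5) in normal lung and 723.0 ± 197.4 (SD, n = 7) in tumors, a log2 fold change of -0.30 (limma adjusted p = 0.254).

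Mxd4, a gene expressed in resting and differentiated cells, fell. It had 6492, 6879, 5837, 7907 and 7730.1 in normal lungs and 3203, 3258, 2814, 2885, 2045, 2181 and 2523 in tumors 1 to 7, so the highest tumor was well below the lowest normal lung. The log2 fold change of Mxd4 came to -1.38 (SE 0.15, limma adjusted p = 3.15e-06). Mxd1 and Mxi1, both induced in many cell types as they differentiate, did not pass the test. Mxd1 spanned 1079 to 1313 among normal lungs and 741 to 1271 among tumors (log2 fold change -0.28, SE 0.15, limma adjusted p = 0.127). Mxi1 ran from 944 to 1329 in normal lungs and from 1133 to 1446 in 6 tumors, with tumor 3 apart at 2631 (log2 fold change 0.33, SE 0.20, limma adjusted p = 0.163). Per kilobase of exon, Mxd4 was above Mxd3 in all 5 normal lungs, and Mxd3 was above Mxd4 in 6 of 7 tumors, all but tumor 1. With the longest transcript as the length, Mxd3 was above in 4 of 7.

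Mnt and Mga, the large MAX partners, were on the edge of the test or short of it. Mnt, the most widely expressed of the repressors, had 1747.5, 954, 1256.5, 876 and 1858 in normal lungs and ran from 1441 through a median of 1723 to 1880 in tumors. The normal lungs fell into high and low values that spanned nearly the whole range of the tumors (log2 fold change 0.41, SE 0.19, limma adjusted p = 0.0769). Mga had 1408, 1572, 1195, 1199 and 1236 in normal lungs and ran from 1344 through 1672 to 2394 in tumors, with overlap; the log2 fold change of Mga was 0.39 (SE 0.16, limma adjusted p = 0.0505). Scaling the columns to equal totals, which moved the median log2 fold change of all genes from 0.04 to 0.24, called Mga (0.60, adjusted p = 0.00542), Mnt (0.61, adjusted p = 0.0159) and Mxi1 (0.53, adjusted p = 0.0200) higher as well; the calls for those 3 genes thus depend on the scaling. The outcome for Mga was kept in only 15 of 24 alternatives, and that for Mnt in 21 of 24. Mga also passed without normal lung 2, tumor 2, tumor 4 or tumor 7 (limma adjusted p from 0.0222 to 0.0422). Mnt also passed without normal lung 1 or 5.

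**Figure D4:**
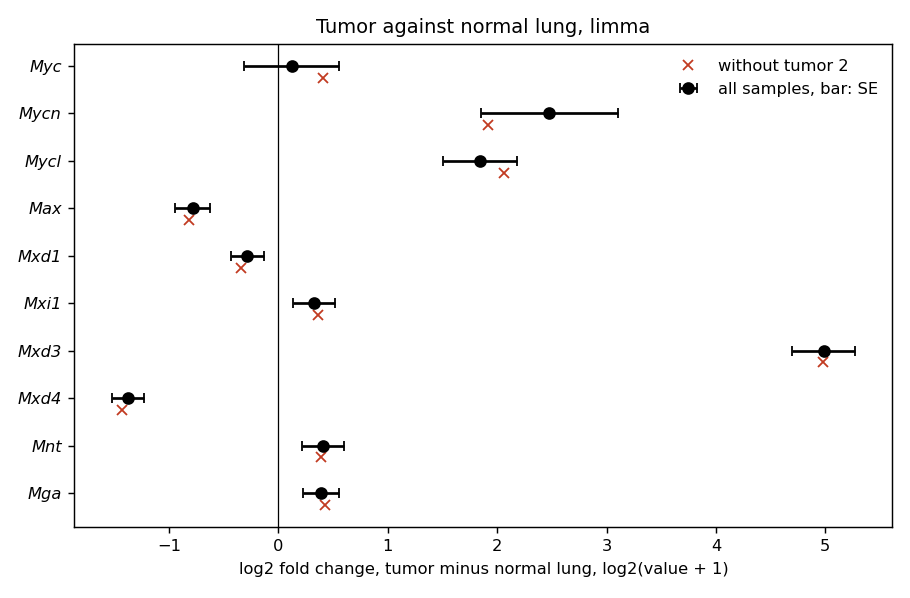
Log2 fold change of each gene, tumor minus normal lung, on the log2(value + 1) scale by limma (black: all 12 samples, bar: standard error; red cross: without tumor 2). Mxd3 lies at 4.99, Mycn at 2.48 and Mycl at 1.84, Max and Mxd4 lie below 0, and leaving out tumor 2 moves Mycn to 1.92.

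In order of level per kilobase of exon, the medians over normal lungs were 811 for Mxd4, 700.3 for Max, 272 for Mnt, 173 for Mxi1, 169 for Mxd1, 126.5 for Mycl, 83.5 for Myc, 80.6 for Mga, 37.2 for Mycn and 13.1 for Mxd3. The ranges of neighbours in this order overlapped except for Max with Mnt and Mga with Mycn, which thus were the only steps larger than the spread of the samples. In tumors the medians were 563.5 for Mxd3, 401 for Mycl, 387 for Max, 372 for Mnt, 332 for Mxd4, 189 for Mxi1, 174.5 for Mycn, 138 for Mxd1, 109 for Mga and 104 for Myc. Mxd3 thus moved from the last place to the highest median, and in the tumors the ranges of every pair of neighbours overlapped. These orders carry no test.

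The MLX branch of the network changed in 1 of 3 genes. Mlxipl, the carbohydrate-responsive factor ChREBP, had 43.7 to 145 in the normal lungs and 491 to 947 in 6 of the tumors, with tumor 2 at 47.7, inside the normal range (log2 fold change 2.71, SE 0.66, limma adjusted p = 0.00278). Mlxip, another glucose sensor, had a log2 fold change of -0.38 (limma adjusted p = 0.116). Tumor 2, with the most Mycn, was thus the only tumor without raised Mlxipl.

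Genes for proteins that work with MYC or with the MXD repressors were mostly higher. Of 12 coactivator genes 9 rose and 1 fell, against 31.4% higher and 30.1% lower among all tested genes, with a median log2 fold change of 0.86 against 0.04 over all genes. Among them were Hcfc1, a MYC-binding cofactor (1.29), Kat2a, a histone acetyltransferase (1.02), and Trrap, the scaffold of acetyltransferase complexes (0.95); Cdk9, an elongation kinase, fell by 0.36 (limma adjusted p = 0.0399), a call kept in 10 of 24 alternatives. Of 11 genes in the list of SIN3 and other corepressors 10 rose, against 31.4% of all tested genes, with a median of 1.13. The remaining 1 did not pass the test. Zbtb17, 1 of the 10 that rose (1.13), encodes a DNA-binding partner of MYC and not a corepressor subunit. The SIN3 subunit gene Sap30 went from a mean of 211 to 612, Rbbp7 rose by 1.24 and the deacetylase gene Hdac2 by 1.22, and the gene that did not pass was the scaffold Sin3a (0.38, limma adjusted p = 0.117).

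Of 11 tested regulators of MYC protein stability 7 rose and 1 fell (median 0.82), where 31.4% of all tested genes rose and 30.1% fell. Cip2a, which shields MYC from a phosphatase, rose by 4.32, Plk1 by 3.65 and Aurka, a kinase that stabilizes MYCN, by 3.61, and Skp2, a ubiquitin ligase subunit, by 3.48. Ppp2r5a, a subunit of the phosphatase that marks MYC for turnover, fell by 1.38 on the log2 scale. Cip2a, Plk1, Aurka and Skp2 are also genes of dividing cells, whose marker genes were higher in every tumor, and their part was not tested; Fbxw7 was not analysed here.

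MGA works in the Polycomb complex PRC1.6, which silences germ-cell genes. Of 10 genes for its other subunits 8 rose and 1 fell (median 0.88; all tested genes 31.4% and 30.1%): Tfdp1, the partner of E2F6, rose by 3.12, Pcgf6 by 2.05, Cbx3 by 1.47 and L3mbtl2 by 1.33, and Ring1 fell by 0.99. Of 11 tested germ-cell genes 6 rose, 0 fell and 5 did not pass the test (median 2.27). Among all tested genes 31.4% rose and 30.1% fell. Tdrkh spanned 57.5 to 98.5 among normal lungs and 440.0 to 876 among tumors, and Smc1b, a meiotic cohesin, had 9.69 to 15.5 and 92.9 to 255. Stag3, another meiotic cohesin, spanned 2.15 to 9.20 and 6.96 to 270.2, and Taf7l had at most 1.61 in normal lungs, below 3 reads, and 10.9 to 46.7 in tumors. Ddx4, the germ-cell helicase that stands first in the list, did not pass (2.30 to 12.9 and 0.991 to 31.6; limma adjusted p = 0.151). Several of these genes are near the detection limit in normal lung, where a fold has little meaning.

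Most of the MYC targets in the 2 lists examined here were higher in the tumors. Of 24 ribosome biogenesis genes 17 rose, against 31.4% of all tested genes, and 7 did not pass the test, with a median log2 fold change of 0.73, and in 15 of the 24 every tumor was above every normal lung, against 20.1% of all tested genes. The box C/D proteins Nop58 (2.17) and Nop56 (2.11), the nucleolar GTPase Gnl3 (1.97) and Rrp12 (1.56) changed most, and nucleolin (Ncl) rose by 0.74. Of 20 growth and metabolism targets 14 rose and 1 fell (median 1.07; 31.4% and 30.1% of all tested genes). Rcc1 (3.17), Cdc25a (2.08), Tfrc, the transferrin receptor (1.86), and Apex1 (1.78) rose most; Odc1, the classic polyamine target, did not pass (0.59, limma adjusted p = 0.0619), and Ccnd2, which encodes cyclin D2, fell by 4.62. Several of these genes, Rcc1 and Cdc25a among them, serve the cell cycle. Of 7 genes that MYC is known to repress, 3 rose and 4 fell, where 61.5% of all tested genes were called: Cdkn1a (1.71), Cdkn1b (1.38) and Ndrg1 (1.10) were higher, and Cebpa (-4.72), Cdkn2b (-2.91), Ndrg2 (-1.60) and Gadd45a (-0.61) were lower. Cebpa is a gene of the lung epithelium, whose summed markers were lower in every tumor. The spans of Mlx, Mlxip, Sin3a, Rbbp7, Skp2, L3mbtl2, Tdrkh, Nop56, Gnl3, Apex1, Ccnd2, Ndrg1, Gadd45a, Cebpa, Cap1 and Bmp8b overlap a gene on the other strand, and that of Rcc1 one on its own strand; no strand setting is given, so reads in the shared parts cannot be told apart.

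Many target genes were highest in tumor 2, the tumor with the most Mycn. Among the ribosome biogenesis genes, tumor 2 had the highest value of the 7 tumors in 17 of 24 (70.8%), and among the growth and metabolism genes in 12 of 20 (60.0%), against 21.0% of all tested genes. The coactivator genes, which are not listed as targets, did the same: of 12, tumor 2 was highest in 9. Other lists did so less. Tumor 2 was highest in 3 of the 6 MXD, MNT and MGA genes, 5 of 11 protein stability genes and 2 of 10 PRC1.6 subunit genes. Among 11 genes of the corepressor list and among 11 tested germ-cell genes it was highest in 1 each, in the corepressor list Zbtb17. The median log2 difference of the ribosome biogenesis genes from the mean of the normal lungs was 1.41 in tumor 2 and 0.50 to 0.83 in the other 6 tumors. For the growth and metabolism genes it was 1.40 in tumor 2, 1.29 in tumor 3 and 0.63 to 1.01 in the rest, so tumor 2 was less apart there. Over all tested genes it was between 0.00 and 0.10 in every tumor. Tumor 2 was not outstanding in the sum of proliferation markers, at 47658 within the range of the tumors, and its red blood cell markers summed to 10705, against 91.2 to 1062 in the other tumors. No test was made on these counts, since 1 tumor stands against 6.

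**Figure D5:**
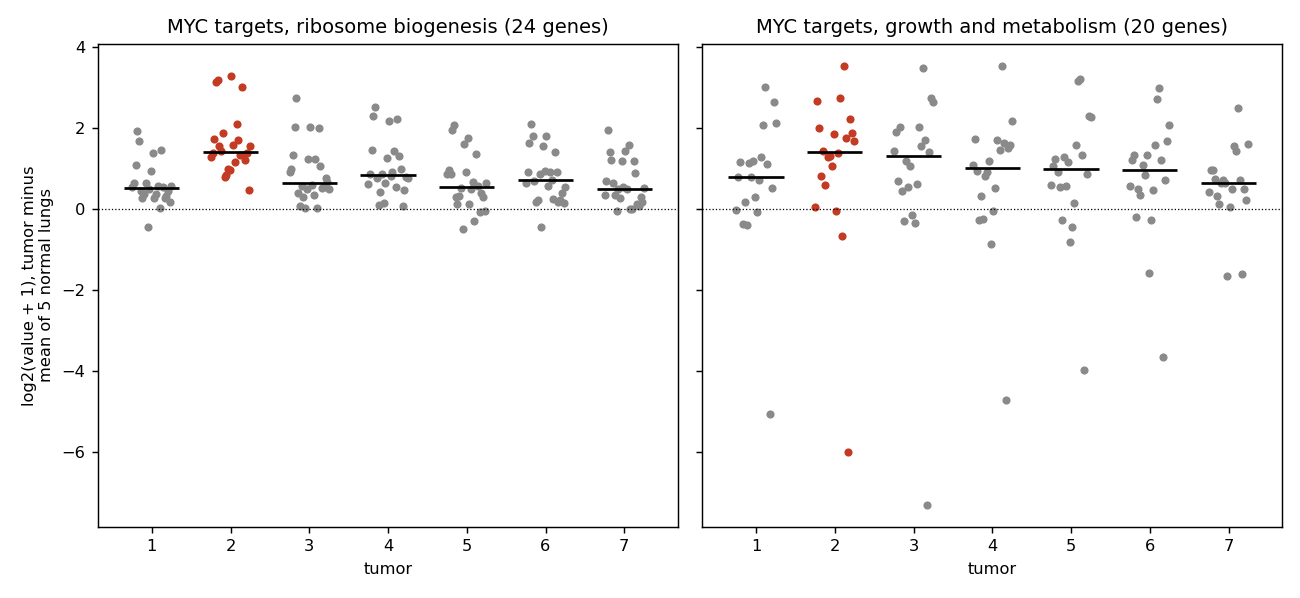
Difference of log2(value + 1) from the mean of 5 normal lungs for 24 ribosome biogenesis targets (left) and 20 growth and metabolism targets (right) in each tumor; each point is a gene, each bar a median, and tumor 2 is red. The median of the ribosome biogenesis genes is 1.41 in tumor 2 and at most 0.83 in the other tumors.

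Ppan, a ribosome assembly factor, had 2266 in tumor 2 and 413 to 704 in the other tumors. Gnl3 had 1599.9 against 423 to 737, Nop56 had 3575 against 1081 to 1985, and Srm, the spermidine synthase gene, had 1738 against 476 to 1023. In these 4 genes tumor 2 was above every other tumor. The pattern did not hold for all targets: Tert, the telomerase gene, had 32.2 in tumor 2 and 141.5 to 465.9 in the other tumors, and Odc1, which lies 16 genes past Mycn on chromosome 12, had 448 against 425 to 1167.

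Across the 7 tumors, the genes whose log2 values were most like a paralog's were ranked by Pearson's r among 14798 genes, as a description of 7 points that include tumor 2. For Mycn they were Fgfr1op (0.987), the mitochondrial chaperonin gene Hspd1 (0.985), Gm12905 (0.984), Nat8l (0.982) and C730034F03Rik (0.979). These values rest partly on tumor 2: without it, r was 0.842 for Fgfr1op, 0.823 for Hspd1, 0.854 for Nat8l and 0.783 for C730034F03Rik, and 0.992 for Gm12905. For Mycl they were Gmps, which encodes GMP synthase (0.964), Zfp994 (0.963), Hectd2 (0.954), Gm9816 (0.943) and Cwf19l1 (0.939). With tumor 2 left out, r for these genes ran from 0.872 (Cwf19l1) to 0.930 (Zfp994). For Myc they were Rsph3b (0.989), the cell cycle inhibitor gene Cdkn2b (0.989), Tmem205 (0.988), Immp2l (0.984) and Parm1 (0.984), and without tumor 2 they ran from 0.960 (Immp2l) to 0.976 (Rsph3b). How high the best r among so many unrelated genes would be with 7 points was not tested.

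Between the tumors titled trachea (2) and lung (4), 0 of the 10 genes passed the test after adjustment, in a comparison that called 0 of 23282 genes (0.0%; limma, Benjamini-Hochberg) and in which 8.96% of genes had an unadjusted p under 0.05. Mxd3 was the 1 of the 10 genes with an unadjusted p under 0.05, with means of 781 in the 2 trachea tumors and 1492 in the 4 lung tumors (difference -0.93, SE 0.19, limma unadjusted p = 0.00183, adjusted p = 0.341). Trachea tumor 7 shares its title number with lung tumors 5 and 6, and lung tumors 3 and 4 share another. The test treated all these tumors as independent. The tumors at the trachea were also the 2 with the lowest summed proliferation markers.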

How the data were processed

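Bulk RNA-seq of 5 normal lungs and 7 tumors was analysed from a table of normalized counts for 30399 genes, a signal that the authors made and deposited; the submitters' processing notes name featureCounts, DESeq2 and GRCm39, with no versions. Values of 11 samples were whole multiples (within 0.001) of 1 read, giving size factors and depth; tumor 3, whose multiple could not be separated from rounding, stayed out of count tests. In a check for libraries deposited again, the closest of 31 same-group pairs had a chi-square of 19.8 per degree of freedom, far above counting noise.

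Genes with a mean of at least 1 were tested as log2(value + 1) with limma 3.58.1 (trend) in R 4.3.3, with Benjamini-Hochberg adjustment and a threshold of 0.05. Recovered counts went through edgeR 4.0.16 and DESeq2 1.42.0 as alternatives. The fit was tested on simulated data. GENCODE M21 (GRCm38) gave symbols for 29982 genes, exon lengths and gene order; since builds differ, no coordinates of the table's genes are given, and promoters are RefSeq's. Other alternatives changed the pseudocount, filter, scaling, lengths, samples left out and treatment of shared title numbers.

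All 10 genes are named. In each list, the called genes with the largest changes in each direction (up to 4) and the list's first gene are named. Some genes that this rule names are not reported here. The genes examined around Mycn, and examples from tumor 2, were chosen after values were seen. Members and lists were chosen with earlier results of these data known. Whether replicates came from separate animals is not stated, so p-values measure only the spread between these samples, which may be technical. Reads carry no molecular identifiers, so detection limits cover counting error only.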

Additional observations from a re-analysis of the deposited data

Results flagged for a closer look

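Values that stood apart from the other tumors of their group (gap to the nearest sample over the whole range above Dixon's limit, 0.568 for 7 tumors and 0.71 for 5 normal lungs) were found in 7 of 34 group comparisons, all among tumors. Chance gives about 1 in 20, or 1.7, if items are independent, which these are not: Ddx1 and Nbas were taken in because tumor 2 stood apart for Mycn, and the 2 shares follow from its Mycn level. In tumor 2, the log2 value of Mycn was 12.816, against 9.449 in the next tumor. Its neighbours Ddx1 and Nbas were at 13.864 and 13.807, against at most 9.861 and 9.944. The Mycn share of the length-scaled paralog level was 90.887% in tumor 2, against 24.801% in the next tumor, and the Mycl share was the lowest, 7.856% against 49.156%. Mlxipl was lowest in tumor 2, at a log2 value of 5.604 against 8.941 in the next tumor. Mxi1 was highest in tumor 3, at 11.362 against 10.498. Of these 7 values 6 belong to tumor 2, and the values of Ddx1, Nbas and the shares are no separate evidence.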

How the results depend on the processing

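The lower calls of Max and Mxd4 held in all 24 alternatives, as did the higher calls of Mycl and Mxd3. Mycn was called in the 23 in which it had an adjusted p; DESeq2 gave it none. The number of the 10 genes called higher was 3, 6 with columns scaled to equal totals (Mga, Mnt and Mxi1 added), 4 with a pseudocount of 10, a filter of 10, edgeR or without the trachea tumors, 2 with DESeq2, and 3 to 4 when a sample was left out. Genes called over the whole table ran from 11190 (edgeR) to 15258. The log2 fold change of Myc changed sign, from 0.12 to -0.191 with tumors of 1 title number averaged, -0.017 with them treated as correlated and -0.15 without the trachea tumors; leaving out 1 sample gave -0.098 (tumor 7) to 0.41 (tumor 2), with -0.009 without normal lung 4 and -0.008 without tumor 6. It was never called. Mga was on either side of the threshold (adjusted p from 0.00542 to 0.109), as was Ddx1 (from 5.44e-04 to 0.0922); the cause was not tested. Mycn ranged from 1.92 (without tumor 2) to 3.72 (edgeR). The run of high genes around Mycn held 14 genes against the normal lung mean, 12 with 10 genes on each side, and 17 with the other tumors raised to 3 reads; these settings were chosen after seeing the data. No paired analysis was possible because the replicate numbers only name samples and tie none in normal lung to a tumor. Depth limits the germ-cell genes, several of which lie under 3 reads in normal lung.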
